A study of Homo sapiens with 6 samples.

Results

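Signalling from RAS through RAF and MEK to the kinase ERK switches on genes whose products restrain the same pathway, together with transcription factors that carry its output, and 10 of these genes were followed here in A2780 CDK12 KO cells. The dual-specificity phosphatases encoded by DUSP4, DUSP5 and DUSP6 remove phosphate from ERK. Sprouty proteins (SPRY1, SPRY2, SPRY4) and the related SPRED proteins (SPRED1, SPRED2) act further upstream, between growth factor receptors, RAS and RAF. ETV4 and ETV5 are ETS transcription factors of the PEA3 group that are transcribed when ERK is active and the repressor CIC is held off DNA. All of these transcripts are widely read as an indirect record of ERK output in tumor cells. The 10 genes were chosen by symbol, as members of these families, and were matched to the count table by Ensembl identifier without its version. They are 10 of 60483 listed genes, and all 10 were among the 16198 genes with enough counts to be tested.

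A2780 is a human ovarian carcinoma cell line, and RNA-seq was available for the parental wild-type cells (WT, 3 libraries) and for A2780 CDK12 KO cells (KO, 3 libraries). CDK12 is a cyclin-dependent kinase that phosphorylates RNA polymerase II. The KO cells are 1 clone, made with a CRISPR/Cas9 plasmid aimed at exon 1 of CDK12, and the study describes a gain of whole chromosome sets in that clone, so every KO value below is that of a single clone. Both groups were grown in the same medium, no drug was given according to the labels, and no label says that the 3 libraries of a group came from separate cultures, so p-values measure the spread between these libraries, which may be technical. In bulk RNA, fewer cells expressing a gene and less of its RNA per cell cannot be told apart.

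Library totals ranged from 11098400 to 30899045 counts, the smallest being WT replicate 3. CDK12 itself, the targeted gene, had 2831, 3759 and 1294 counts in WT and 2432, 2504 and 1818 in KO, or 115 ± 11.1 and 98.0 ± 4.64 CPM (counts scaled to library size, mean ± SD, n = 3), a log2 fold change of −0.23 (SE 0.0582, edgeR adjusted p = 8.2e-04). Gene counts do not tell edited from unedited transcripts. The study reports that both CDK12 alleles of the clone were altered and that western blots showed no CDK12 protein. Of 8 epithelial and Müllerian markers, KRT8 and KRT18 were detected in all 6 libraries (7.34 and 59.9 CPM in WT, 11.0 and 103 in KO) and EPCAM was low (3.19 and 2.17 CPM), while KRT19, CDH1, PAX8, WT1 and MUC16 had too few counts to be tested, so the labelled tissue was not marked by most of its usual transcripts. Summed over their lists, the 3 endothelial markers were between 0.0730 and 0.300 CPM in WT and between 0.674 and 0.892 CPM in KO, and the 3 blood markers between 0.234 and 0.540 CPM in WT and between 0.610 and 1.00 CPM in KO. The endothelial marker VWF (2, 7 and 3 counts in WT, 18, 22 and 10 in KO) and the blood marker CD14 (12, 7 and 5 in WT, 12, 26 and 12 in KO) were both up-regulated from these low levels (edgeR adjusted p = 1.04e-04 and 0.0156), while PECAM1, CDH5, PTPRC and CD3E had no more than 2 counts in any library. The 3 mesothelial markers summed to between 0.768 and 1.62 CPM in WT and between 2.02 and 2.32 CPM in KO. The 4 fibroblast markers summed to between 5139 and 5271 CPM in WT and between 2677 and 2811 CPM in KO. Their part in the results was not tested.

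The feedback genes did not move as a block. SPRY1 and DUSP6 were down-regulated to almost nothing in KO cells, and the other 8 genes stayed within a log2 fold change of −0.26 to 0.49. Up- and down-regulated stand for genes that passed both an adjusted p of 0.05 and a log2 fold change of 1 in either direction. By this rule 0 of the 10 genes were up-regulated, where 8.3% of all tested genes were, and 2 of the 10 were down-regulated, where 7.73% of all tested genes were. By the adjusted p alone, 6 of the 10 were higher in KO, beside 31.9% of tested genes, and 4 were lower, beside 32% of tested genes. The values of the WT and KO libraries did not overlap for any of the 10 genes, a separation that 66.4% of all tested genes also had, and for each gene the exact permutation test gave p = 0.1, the smallest that 3 libraries against 3 can give. Over the 10 genes the log2 fold changes had a median of 0.19, against 0.00 over all tested genes.

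**Figure D1:**
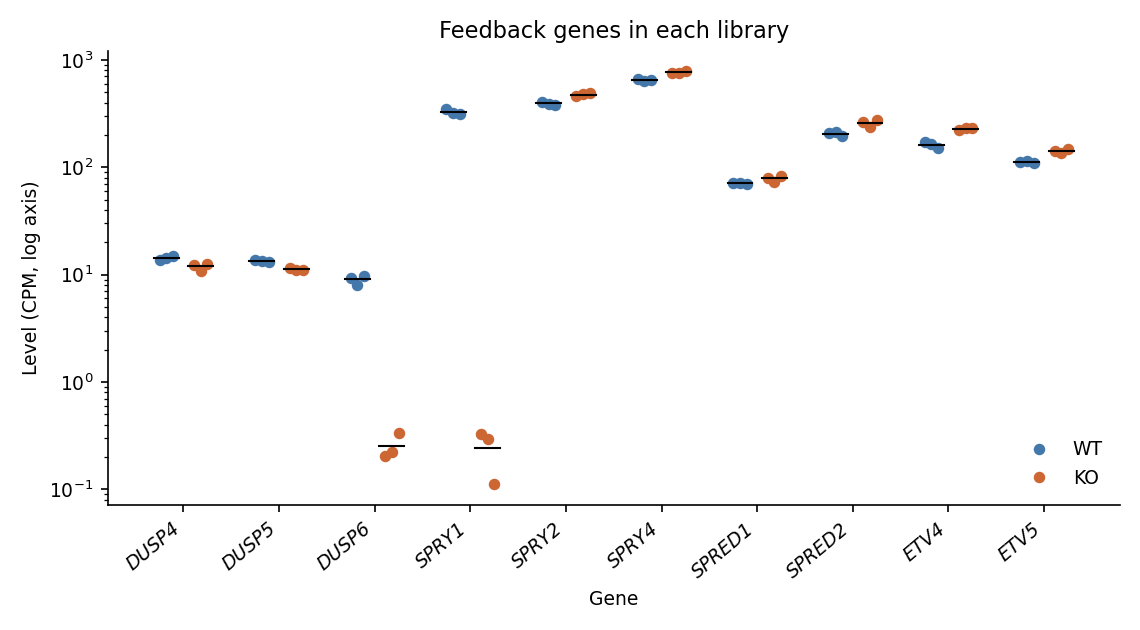
Level of each of the 10 feedback genes in each library, in CPM on a log axis, with WT in blue, KO in orange and a bar at the mean of 3 libraries. SPRY1 falls from between 316 and 351 CPM to between 0.112 and 0.326 CPM and DUSP6 from between 8.04 and 9.82 CPM to between 0.203 and 0.337 CPM, while the other 8 genes lie close to their WT level.

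SPRY1 encodes a Sprouty protein, a membrane-associated inhibitor of receptor tyrosine kinase signalling best known for limiting FGF and neurotrophic signals in development. It lies on chromosome 4 from 123396795 to 123403760 on the plus strand of GRCh38, and its reference transcript has 3 exons. SPRY1 had 9629, 9549 and 3513 counts in the WT libraries and 8, 8 and 2 counts in the KO libraries. Scaled to library size, this was 351, 319 and 316 CPM in WT against 0.326, 0.297 and 0.112 CPM in KO. The highest KO library was thus far under the lowest WT library. The means were 329 ± 19.6 and 0.245 ± 0.116 CPM (SD, n = 3), and the log2 fold change was −10.28 (95% interval −10.51 to −10.05, edgeR adjusted p = 4.15e-36). Counted from the lowest, this value ranked 26 among the 16198 tested genes. Because a fitted fold change leans on a prior count where counts are this few, the summed counts are also given. They were 22691 in WT and 18 in KO, so that KO held 0.0784% of the WT level (exact 95% interval 0.0464 to 0.124%, counting error only), a 1276-fold difference with an interval from 807 to 2153. On the log2 scale this counting interval is wider than the fitted interval, so the fitted interval of SPRY1 is too narrow.

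DUSP6 encodes a cytoplasmic phosphatase that is highly selective for ERK, and its transcript is among the most used readouts of ERK activity. It lies on chromosome 12 from 89347235 to 89352501 on the minus strand and has 3 exons. DUSP6 had 257, 241 and 109 counts in WT and 5, 6 and 6 counts in KO, or 9.38, 8.04 and 9.82 CPM against 0.203, 0.223 and 0.337 CPM. Again no KO library came near a WT library, although the starting level was far lower than that of SPRY1. The means were 9.08 ± 0.923 and 0.254 ± 0.0722 CPM (SD, n = 3), and the log2 fold change was −5.16 (95% interval −5.59 to −4.72, edgeR adjusted p = 4.47e-20). Summed counts were 607 in WT and 17 in KO, so that KO held 2.77% of the WT level (exact 95% interval 1.60 to 4.47%), a 36.1-fold difference with an interval from 22.4 to 62.4. Here too the counting interval is wider on the log2 scale than the fitted interval, which is too narrow. A log2 fold change this low or lower was found in 1.52% of tested genes.

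The stretches of DNA just before the annotated starts of SPRY1 and DUSP6, the 2 genes that fell, and of SPRY2, the Sprouty relative that did not, are shown so that they can be compared by eye. They are the 250 bases before the start in RefSeq (build GRCh38.p14), at chr4:123396545-123396794 on the plus strand for SPRY1, chr12:89352502-89352751 on the minus strand for DUSP6 and chr13:80341127-80341376 on the minus strand for SPRY2. Each is written 5′ to 3′ along its own gene, and the capitals mark CG dinucleotides, the sites at which human DNA is methylated.
SPRY1: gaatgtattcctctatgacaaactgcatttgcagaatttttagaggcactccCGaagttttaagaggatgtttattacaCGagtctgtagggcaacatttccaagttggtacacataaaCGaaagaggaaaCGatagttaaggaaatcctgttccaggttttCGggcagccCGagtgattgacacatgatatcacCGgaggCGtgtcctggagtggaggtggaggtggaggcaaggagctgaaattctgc
DUSP6: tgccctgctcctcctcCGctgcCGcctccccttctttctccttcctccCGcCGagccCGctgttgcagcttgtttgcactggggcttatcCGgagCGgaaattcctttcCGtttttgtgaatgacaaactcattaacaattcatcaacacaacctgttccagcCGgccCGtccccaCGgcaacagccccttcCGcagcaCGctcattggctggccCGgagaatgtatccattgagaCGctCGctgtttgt
SPRY2: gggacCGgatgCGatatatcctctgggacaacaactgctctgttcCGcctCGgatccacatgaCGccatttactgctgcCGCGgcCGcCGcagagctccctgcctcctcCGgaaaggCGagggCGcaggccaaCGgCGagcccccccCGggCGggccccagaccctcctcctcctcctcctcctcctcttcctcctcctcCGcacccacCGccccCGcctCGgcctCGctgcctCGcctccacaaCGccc
The SPRY1 stretch is 45.6% G and C with 8 CG dinucleotides, the DUSP6 stretch is 57.2% with 16, and the SPRY2 stretch is 70.4% with 23. SPRY2 has other annotated starts, where the 250 bases before hold 13 and 5 CG dinucleotides (62.4% and 41.2% G and C). SPRY1 has another annotated start, where the 250 bases before hold 24 CG dinucleotides (68.0% G and C). The 300 base window at that start, from 123398136 to 123398435, is 69.3% G and C with 32 CG dinucleotides, as many as the richest window of any of the other genes. Windows were available for 6 of the 10 genes (10 windows in all), not for DUSP4, DUSP5, ETV4 and ETV5. The 3 windows of SPRY1 and DUSP6 held 12 to 32 CG dinucleotides and the 7 windows of SPRY2, SPRY4, SPRED1 and SPRED2 held 4 to 32, around a median of 14 over all 35116 windows. CG dinucleotides were counted after the sequences were seen, and DNA methylation was not analysed here.

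The windows were also searched on both strands for short motifs of factors linked to ERK. The CIC octamers TGAATGAA and TGAATGGA, found in 1.65% and 1.03% of all windows, the ETS motif CCGGAAGT, found in 4.14%, and the cAMP response element TGACGTCA, found in 1.85%, were not present in the windows of these genes. The AP-1 motif TGANTCA, found in 7.71% of all windows, was present in 1 of the 10, at the inner start of SPRED2. These matches describe letters in short windows only.

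The other Sprouty genes of these cells did not follow SPRY1. SPRY2, which lies on chromosome 13 from 80335976 to 80341126, had 408, 388 and 384 CPM in WT and 458, 477 and 491 CPM in KO. All KO libraries were above all WT libraries, and the log2 fold change was 0.27 (95% interval 0.18 to 0.37, edgeR adjusted p = 7.06e-06). SPRY4, on chromosome 5 from 142310427 to 142326455, had 667, 641 and 653 CPM in WT and 762, 759 and 781 CPM in KO. Its log2 fold change was 0.23 (95% interval 0.14 to 0.32, edgeR adjusted p = 5.47e-05), again with every KO library above every WT library. SPRY4 reads may be shared with SPRY4-AS1, an RNA of the opposite strand that overlaps 1247 bases of the gene. That antisense gene was counted at 105, 111 and 42 in WT and 167, 180 and 113 in KO, well under the 7251 to 20445 counts of SPRY4. SPRY3 had 0 counts in every library.

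Because genes of different length collect different numbers of reads, levels were compared between genes as CPM per kilobase of exon. On this scale SPRY2 led in WT with 122 ± 3.96, followed by SPRY4 with 99.7 ± 1.96 and SPRY1 with 83.0 ± 4.94 (mean ± SD, n = 3), and the ranges of these genes did not overlap. That order rests on merged exon lengths, 3963 bases for SPRY1 and 6555 for SPRY4, where the reference transcripts have 2603 and 4904. Shares and sums across genes depend on the same choice, and they were not recomputed with other lengths. In KO the order was SPRY2 with 148 ± 5.17 and SPRY4 with 117 ± 1.77, and SPRY1 was at 0.0618 ± 0.0292. SPRY1 therefore made up 26.7 to 28.0% of the summed Sprouty level in the WT libraries and 0.0104 to 0.0317% in the KO libraries. The summed level of the 3 genes was 305 ± 10.6 in WT and 265 ± 6.60 in KO, or 86.9% of WT. The KO sums, from 259 to 272, all lay under the WT sums, from 299 to 317 (exact permutation p = 0.1). The Sprouty proteins are alike in sequence: identity over aligned positions of the reference proteins was 59.2% between SPRY1 (319 amino acids) and SPRY2 (315), 51.1% between SPRY1 and SPRY4 (299), and 47.7% between SPRY2 and SPRY4.

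**Figure D2:**
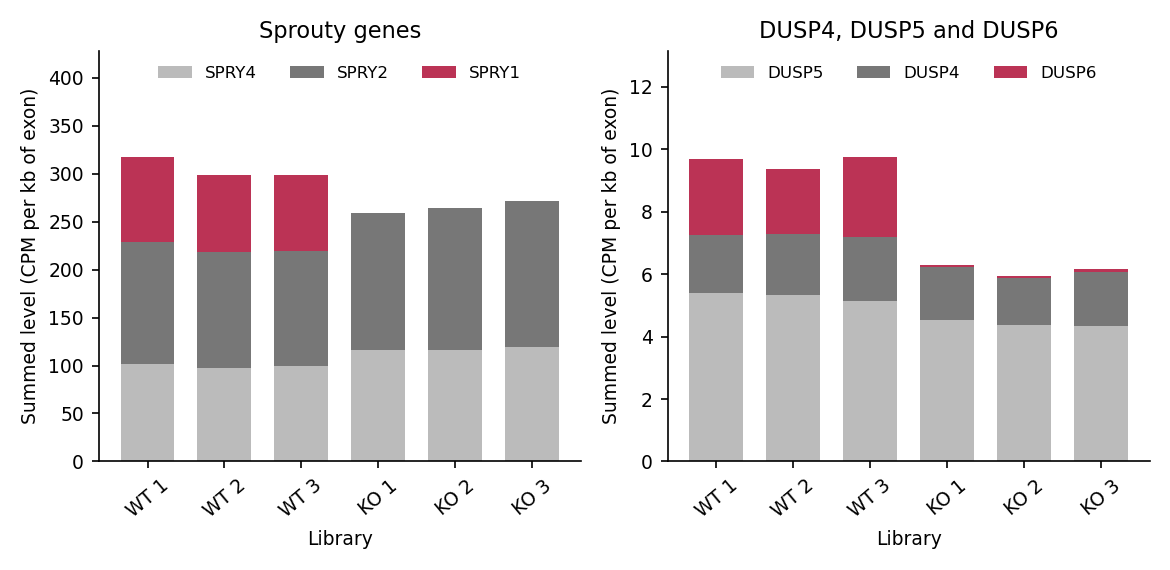
Summed level of SPRY1, SPRY2 and SPRY4 (left) and of DUSP4, DUSP5 and DUSP6 (right) in each library, in CPM per kilobase of exon, stacked by gene. SPRY1 and DUSP6, in red, are visible in all WT libraries and shrink to at most 0.0317% and 1.42% of the stack in KO, while the grey blocks of the other genes remain.

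DUSP4 and DUSP5 were slightly lower in KO. DUSP4, a nuclear phosphatase of ERK, JNK and p38 on chromosome 8, had 13.6, 14.2 and 14.9 CPM in WT and 12.4, 10.9 and 12.5 CPM in KO. Its log2 fold change was −0.25 (95% interval −0.43 to −0.08, edgeR adjusted p = 0.0118), and without KO replicate 2, its lowest library, it was −0.18 and no longer past the test (adjusted p = 0.0900). DUSP5, a nuclear phosphatase selective for ERK on chromosome 10 (110497907 to 110511533), had 13.6, 13.5 and 13.1 CPM in WT and 11.5, 11.1 and 11.0 CPM in KO. The groups were tight and did not overlap, and the log2 fold change was −0.26 (95% interval −0.44 to −0.09, edgeR adjusted p = 0.00752).

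Per kilobase of exon, DUSP5 was the highest of DUSP4, DUSP5 and DUSP6 in WT with 5.28 ± 0.120 CPM, ahead of DUSP6 with 2.35 ± 0.239 and DUSP4 with 1.96 ± 0.0920 (mean ± SD, n = 3). The order of DUSP6 and DUSP4 rested on a small gap, since the lowest DUSP6 library (2.08) was close to the highest DUSP4 library (2.06). It also rested on merged exon lengths of 3859 and 7273 bases, where their reference transcripts have 3627 and 5553. By the reference lengths the WT mean of DUSP4 would lie slightly above that of DUSP6. In KO the levels were 4.42 ± 0.0966 for DUSP5, 1.64 ± 0.125 for DUSP4 and 0.0659 ± 0.0187 for DUSP6. DUSP6 supplied 22.3 to 26.1% of the summed level of these 3 genes in WT libraries and 0.840 to 1.42% in KO libraries. The sum was 9.60 ± 0.210 in WT and 6.12 ± 0.175 in KO, or 63.8% of WT, with no overlap between groups (exact permutation p = 0.1). Other phosphatases that act on ERK were also expressed. With DUSP1, DUSP2, DUSP7 and DUSP9 added, the sum was 54.9 ± 1.69 in WT and 53.7 ± 2.99 in KO, or 97.9% of WT, and the groups overlapped (exact permutation p = 0.7). In that wider sum DUSP6 was 3.74 to 4.59% in WT libraries and 0.101 to 0.169% in KO libraries. The wider sum holds chosen genes only. Among the DUSP genes left out, DUSP3 was lower in KO (50.9 and 37.2 CPM, log2 fold change −0.45). DUSP16, also left out, was higher (61.5 and 105 CPM, 0.77). DUSP2 was higher in KO within the fold threshold (48.8 ± 3.28 and 55.9 ± 4.06 CPM, 0.21 on the log2 scale, edgeR adjusted p = 0.00374) and DUSP9 was lower (17.3 ± 0.870 and 13.7 ± 1.56 CPM, −0.34, edgeR adjusted p = 9.0e-04). Among DUSP4, DUSP5 and DUSP6 the DUSP6 protein is the least alike: identity was 52.3% between DUSP4 and DUSP5, 39.6% between DUSP4 and DUSP6 and 37.0% between DUSP5 and DUSP6.

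SPRED1 and SPRED2 bring the RAS inhibitor neurofibromin to the membrane. SPRED1, on chromosome 15 (38252836 to 38357249), had 70.7, 71.1 and 70.3 CPM in WT and 80.0, 72.4 and 83.7 CPM in KO. The WT libraries were nearly identical, and KO replicate 2 sat just above them. The log2 fold change of SPRED1 was 0.15 (95% interval 0.04 to 0.26, edgeR adjusted p = 0.0170), the smallest of the 10 genes in absolute size. It was no longer past the adjusted p of 0.05 without KO replicate 1 (0.14, adjusted p = 0.0752), without KO replicate 3 (0.11, adjusted p = 0.130) and without WT replicate 3 (0.14, adjusted p = 0.0513). SPRED2, on chromosome 2 (65310851 to 65432637), had 209, 214 and 193 CPM in WT and 265, 236 and 275 CPM in KO. Its log2 fold change was 0.33 (95% interval 0.22 to 0.44, edgeR adjusted p = 3.01e-06). The lowest KO library of SPRED2 was still above the highest WT library. Per kilobase of exon the SPRED sum was 46.4 ± 2.00 CPM in WT and 57.1 ± 4.42 CPM in KO, or 123% of WT (exact permutation p = 0.1), and SPRED2 was the larger part in both groups (37.3 and 47.0 against 9.12 and 10.2 for SPRED1). The SPRED proteins shared 59.8% of aligned positions. NF1, the gene of neurofibromin, was at 154 ± 11.1 CPM in WT and 144 ± 11.5 CPM in KO, a difference that did not pass the test (log2 fold change −0.10, SE 0.0566, adjusted p = 0.119).

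The PEA3 group genes were higher in KO. ETV4, on chromosome 17 (43527844 to 43579620), had 171, 164 and 152 CPM in WT and 222, 232 and 231 CPM in KO. Its mean was 40.6% higher in KO, the largest increase of the 10 genes, and its log2 fold change was 0.49 (95% interval 0.39 to 0.59, edgeR adjusted p = 3.37e-10). The gene lies within DHX8, a helicase gene annotated on the opposite strand, which had 1996, 2349 and 776 counts in WT and 2041, 2142 and 1511 in KO. ETV5, on chromosome 3 (186046314 to 186110318), had 112, 114 and 110 CPM in WT and 141, 135 and 149 CPM in KO, so that the log2 fold change was 0.34 (95% interval 0.24 to 0.44, edgeR adjusted p = 4.74e-07). ETV5 shares 4651 bases of its span with DGKG, a kinase gene annotated on the same strand. DGKG went from 3, 4 and 0 counts to 142, 140 and 80, small beside the 2659 to 3635 counts of ETV5 in KO. ETV1, the remaining gene of the PEA3 group, had 793, 921 and 310 counts in WT and 2487, 2516 and 1948 in KO. ETV1 was up-regulated from 29.2 ± 1.43 to 101 ± 8.0 CPM (log2 fold change 1.78, edgeR adjusted p = 2.17e-22). Per kilobase of exon, ETV4 and ETV5 summed to 65.5 ± 3.04 CPM in WT and 89.5 ± 2.06 CPM in KO, or 137% of WT. With ETV1 included the sums were 68.6 ± 3.12 and 100.04 ± 2.64 CPM, or 146% of WT, and the ETV1 share was 4.24 to 4.61% in WT libraries and 9.84 to 11.1% in KO libraries. ETV4 and ETV5 proteins were identical at 57.4% of aligned positions.

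**Figure D3:**
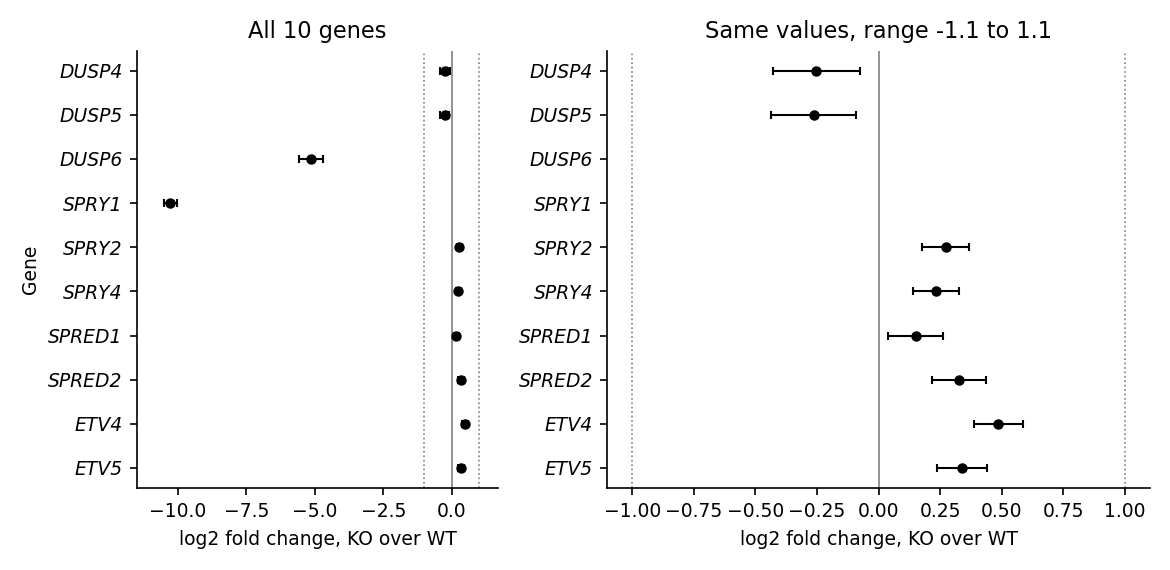
Log2 fold change (KO over WT) of each of the 10 genes with its 95% interval, over the full range on the left and between −1.1 and 1.1 on the right, where SPRY1 and DUSP6 are out of range. Dotted lines mark the fold thresholds of −1 and 1, and SPRY1 (−10.28) and DUSP6 (−5.16) are the points beyond them. For SPRY1 and DUSP6 the intervals drawn are narrower than counting error alone.

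The differences of the 8 genes other than SPRY1 and DUSP6 were ordinary in size for this comparison. Of all tested genes, 66.2% had a log2 fold change of no more than 0.5 in either direction, and the middle of the distribution ran from −0.30 at the 25th percentile to 0.34 at the 75th. ETV4 was above that range, ETV5 and SPRED2 were close to its upper end, and SPRY2, SPRY4, SPRED1, DUSP4 and DUSP5 were inside it.

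Levels of the wider pathway were read from 7 lists with 107 genes in all, of which 89 were tested. Of these, 11 were up-regulated and 11 were down-regulated, or 12.4% in each direction, where all tested genes gave 8.3% and 7.73%. By the adjusted p alone 33 were higher (37.1%) and 31 lower (34.8%), where all tested genes gave 31.9% and 32%. Each list is short, and its counts were read beside these shares. Among 13 other feedback and MAPK phosphatase genes (11 tested), 3 were up-regulated and 1 was down-regulated, with a median log2 fold change of 0.03. LRIG1, a receptor inhibitor, rose from 0.574 to 5.47 CPM (log2 fold change 3.22), and DUSP8, a phosphatase of JNK and p38, rose from 2.51 to 12.9 CPM (2.39). FLRT3, a membrane protein linked to FGF signalling, rose from 5, 7 and 1 counts to 16, 12 and 18 counts (1.79). ERRFI1, which blocks EGFR and is itself an inducible feedback gene, fell from 15.8 to 4.74 CPM (−1.74). IL17RD, an inhibitor of FGF signalling, was lower but within the fold threshold (22.8 and 14.1 CPM, −0.72). DUSP1 (0.03, SE 0.0960) and DUSP7 (−0.03, SE 0.0578) did not pass the test.

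All 20 kinases and adaptors of the RAS to ERK cascade were tested. Of these, 1 was up-regulated and 0 were down-regulated, where all tested genes gave 8.3% and 7.73%. By the adjusted p alone 6 were higher and 8 lower, where all tested genes gave 31.9% and 32%. The median log2 fold change was −0.08. SHC1, an adaptor that links receptors to RAS, rose from 698 ± 21.9 to 1655 ± 62.7 CPM (log2 fold change 1.25, edgeR adjusted p = 1.06e-20). SHOC2, a scaffold for RAF activation, was higher (0.47), and RPS6KA3, an ERK substrate kinase, and MAP2K1, which encodes MEK1, were lower (−0.59 and −0.51).

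Of 10 genes for RAS and RAF brakes, 1 was up-regulated and 2 were down-regulated, with a median log2 fold change of 0.07. The RAS GTPase activators RASA2 and RASA3 fell, RASA2 from 26.6 to 9.13 CPM (−1.54) and RASA3 from 11.2 to 3.79 CPM (−1.57). RASAL1, of the same class, rose from a very low level (0.189 to 1.31 CPM, 2.80), and RASA1 was higher within the fold threshold (0.45).

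Among 13 growth factor receptors (11 tested), 1 was up-regulated and 3 were down-regulated, with a median log2 fold change of −0.37. PDGFRA fell from 90.7 ± 1.30 to 14.8 ± 1.51 CPM (−2.63) and PDGFRB from 7.35 ± 0.374 to 1.97 ± 0.0673 CPM (−1.92). ERBB4 had 63, 79 and 25 counts in WT and 1, 0 and 0 in KO, a 169-fold difference of summed counts with an exact 95% interval from 29.9 to 6715. IGF1R rose from 37.4 ± 1.41 to 89.0 ± 3.45 CPM (1.25). FGFR1 was higher (0.38) and FGFR3 lower (−0.75) within the fold threshold.

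Of 14 growth factor ligands, 7 were tested, of which 2 were up-regulated and 1 was down-regulated, with a median log2 fold change of −0.04. The FGF ligands moved in opposite directions. FGF1 had 22, 15 and 5 counts in WT and 667, 708 and 470 in KO (log2 fold change 5.43, edgeR adjusted p = 3.84e-26). FGF2 had 600, 638 and 243 counts in WT and 57, 74 and 48 in KO (−3.06, edgeR adjusted p = 1.71e-22). The EGFR ligand TGFA rose from 3.81 ± 0.517 to 27.2 ± 1.42 CPM (2.82). FGF19 was at 0.436 and 0.887 CPM (0.89) and PDGFA at 17.2 and 12.9 CPM (−0.40), both past the adjusted p but within the fold threshold. Without WT replicate 1, 4 ligands were up-regulated, the added ones being FGF19 (1.1) and IGF2 (3.87). IGF2 has 1, 1 and 0 counts in WT and 14, 6 and 10 in KO and was not tested in the main fit.

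Other transcripts known to follow ERK moved in both directions. Of 16 in the list, 14 were tested, 3 were up-regulated and 4 were down-regulated, and the median log2 fold change was −0.25. IER3, an immediate early survival gene, fell from 127 ± 10.5 to 6.55 ± 0.321 CPM (−4.27), and PHLDA1 fell from 16.3 ± 1.59 to 1.15 ± 0.147 CPM (−3.84). The receptor gene EPHA2 fell from 70.1 to 15 CPM (−2.23) and CCND1, the gene of cyclin D1, from 341 to 166 CPM (−1.04). The early growth response factor EGR1 rose from 119 ± 15.6 to 308 ± 7.50 CPM (1.37), and EGR3 rose from 3.00 ± 0.753 to 6.78 ± 0.266 CPM (1.16). ETV1 is the third gene of this list that rose.

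The list of ETS factors with CIC and its partners held 22 genes, 17 of them tested. ETV1 was the only gene past both thresholds, 8 were higher and 3 lower by the adjusted p alone, and the median log2 fold change was 0.14. CIC, the repressor of ETV genes named above, was higher within the fold threshold (102 ± 2.89 and 153 ± 7.32 CPM, log2 fold change 0.59, edgeR adjusted p = 4.35e-12), although it was named for its role and not by the rule for naming genes. ELK4 was higher (0.84), and ELK3 (−0.66) and ELF1 (−0.39) were lower.

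**Figure D4:**
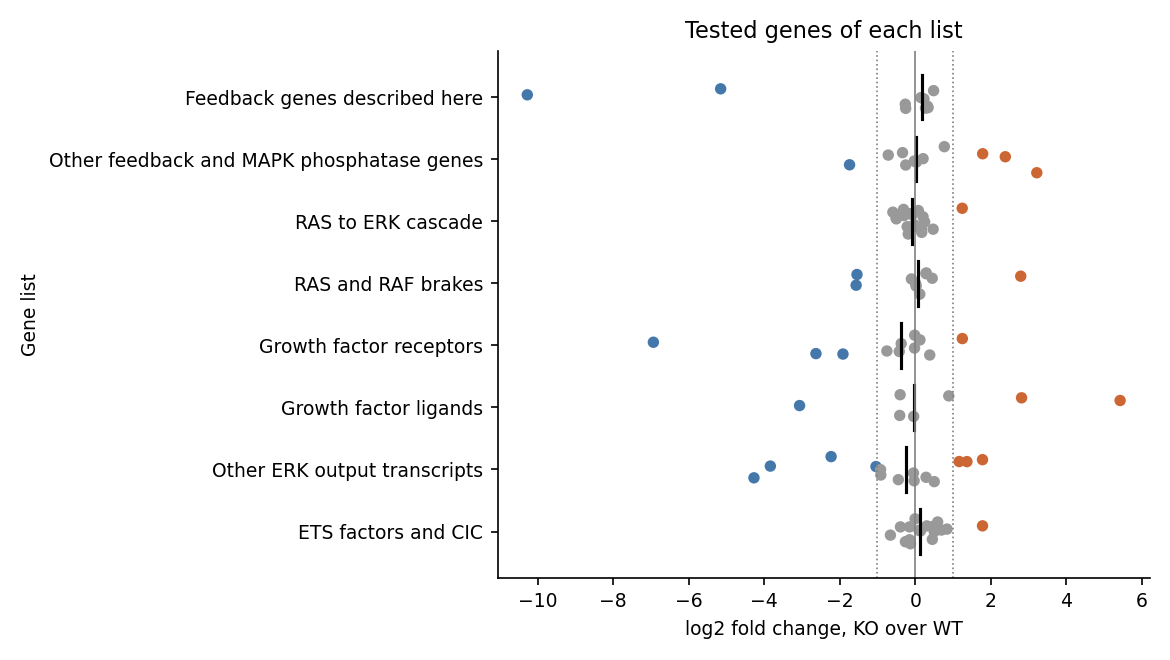
Log2 fold change (KO over WT) of every tested gene in the 10 feedback genes and 7 pathway lists, with genes up-regulated in orange, down-regulated in blue and the rest in grey, a black bar at each list median and dotted lines at −1 and 1. Every list but the cascade and the ETS factors holds down-regulated genes, and the leftmost point of the receptors is ERBB4, whose KO libraries hold 1 count in all, so that its position depends on a prior count.

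Position on the chromosome was not used to choose the genes, so the genes around them were read as well. Of the 40 nearest tested protein-coding neighbors (2 on each side of each gene), 4 were up-regulated and 9 were down-regulated, where all tested genes gave 8.3% and 7.73%. Nearest did not always mean close. The neighbors after SPRY2 lay 7330 and 14233 kb away, the nearer being down-regulated, and FAT4 lay 1911 kb after SPRY1. Around SPRY1 and DUSP6, 4 of 8 neighbors were down-regulated and 0 were up-regulated, and around the other genes 5 of 32 were down-regulated and 4 up-regulated. Next to SPRY1, SPATA5, 77.4 kb before it, fell from 24.2 ± 0.0832 to 11.5 ± 0.765 CPM (−1.07), and ANKRD50, 1260 kb after it, fell from 74.0 ± 8.17 to 35.4 ± 1.44 CPM (−1.06). NUDT6 was level at 9.73 and 9.66 CPM (0.01, SE 0.102), and FAT4 was higher at 1.87 and 3.37 CPM (0.75). Next to DUSP6, ATP2B1, 236 kb after it, fell from 25.2 ± 1.61 to 3.49 ± 0.381 CPM (−2.86), POC1B, 67.2 kb after it, was lower at 18.7 and 10.9 CPM (−0.79), and TMTC3 did not pass the test (−0.09, SE 0.0721). KITLG, which encodes the ligand of the receptor KIT, had 14, 23 and 6 counts in WT and 0 in every KO library, at least 3.60-fold lower when 3 counts in the smallest KO library are taken as the floor.

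A wider window of 2.5 Mb on either side, chosen after these values were seen, held 13 tested protein-coding genes around SPRY1, with 5 of them down-regulated and 0 up-regulated. Around DUSP6 it held 8, again with 5 down-regulated and 0 up-regulated. Windows of this width around the other 8 genes held 285 gene entries, 22 of them down-regulated (7.72%) and 28 up-regulated. Of all tested genes, 7.73% were down-regulated and 8.3% up-regulated. Down-regulated genes near SPRY1 were NDNF (−3.22), BBS7 (−1.60), FGF2 (−3.06), SPATA5 and ANKRD50. FGF2, an FGF ligand already listed above, starts 0.570 Mb before SPRY1, and it overlaps NUDT6, so that reads of this pair may be shared. Down-regulated genes near DUSP6 were C12orf29 (−1.04), KITLG, ATP2B1, LUM and DCN. LUM and DCN are fibroblast markers, with 20, 17 and 6 counts and 19, 23 and 9 counts in WT and 0 in every KO library, at least 3.63-fold and 4.49-fold lower. The fibroblast collagen genes were lower in KO too, COL1A1 at 629 ± 25.1 and 122 ± 9.98 CPM (−2.37) and COL1A2 at 4577 and 2623 CPM (−0.80), and the part of this change in the values of SPRY1 and DUSP6 was not tested. Around SPRY4, which was higher within the fold threshold, up-regulation was called for 17 of 79 genes and down-regulation for 1, and FGF1, 266 kb after it, was among the higher ones. Around ETV4, also higher within the fold threshold, the balance was the other way, with 4 of 91 genes up-regulated and 13 down-regulated.

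**Figure D5:**
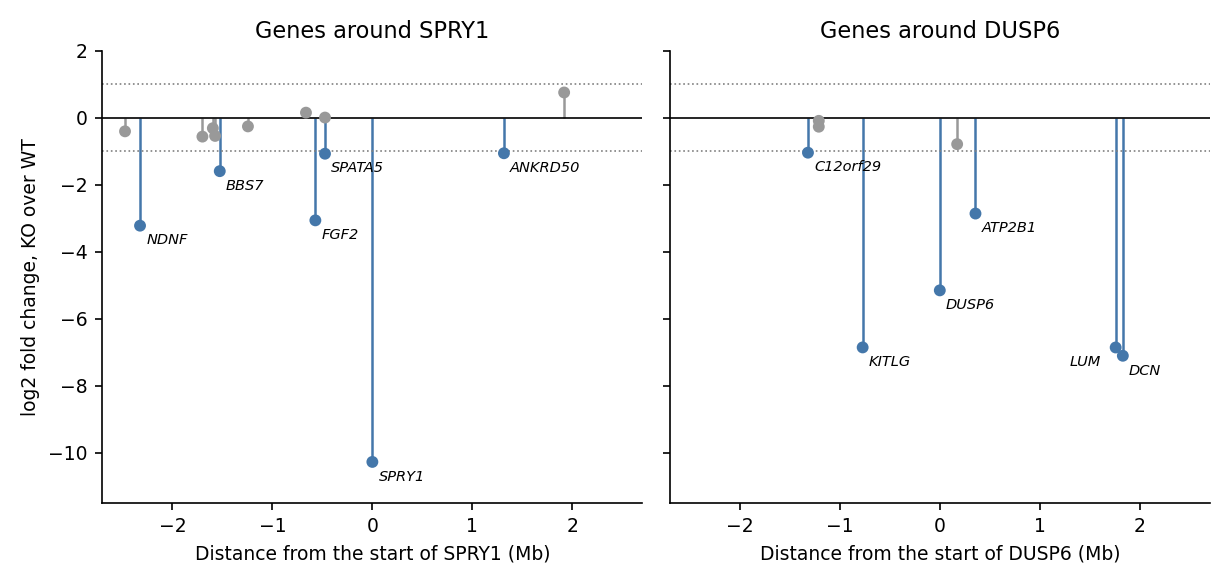
Log2 fold change (KO over WT) of tested protein-coding genes within 2.5 Mb of the start of SPRY1 (left) and of DUSP6 (right), against distance in Mb, with down-regulated genes in blue and named, the rest in grey, and dotted lines at −1 and 1. In each window 5 genes besides SPRY1 or DUSP6 are down-regulated and 0 are up-regulated, and the positions of KITLG, LUM and DCN, at 0 counts in KO, depend on a prior count.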

How the data were processed

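RNA-seq counts of A2780 WT (3 libraries) and A2780 CDK12 KO cells (3 libraries) were analysed, with groups taken from the genotype labels. The authors deposited raw counts per gene. Per the labels and the study's methods, libraries were made with a directional kit and read single-ended, checked with FastQC, aligned with STAR to GRCh38 and counted with HTSeq-Count, and tool versions, annotation release, strand setting and the treatment of multi-mapping reads are not given in the sources used here. Antisense or overlapping genes and near-identical copies may therefore share reads. Identifiers were matched to GENCODE release 44 (56321 of 60483 genes, 93.1%), and symbols, positions and merged exon lengths were taken from it.

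The comparison of KO and WT used edgeR 4.0.16 under R 4.3.3. Genes were filtered with filterByExpr (minimum count 10, minimum total 15) and scaled with TMM. The quasi-likelihood test was two-sided, fitted on all 16198 genes kept, with Benjamini-Hochberg adjustment over them. Genes were called where the adjusted p was below 0.05 and the log2 fold change passed 1 in either direction. Adjusted p-values given without a tool are from this fit. CPM values used TMM-scaled totals. The standard error of a log2 fold change was taken as its absolute value divided by the square root of the F statistic. Intervals of log2 fold changes come from this standard error and the t distribution on the total degrees of freedom, and intervals of summed counts are exact binomial intervals. For SPRY1 and DUSP6, with few KO counts, the fitted intervals are narrower than counting error alone. For single genes, means of log2 CPM with a pseudocount of 0.5 were compared by an exact permutation test, two-sided. Sums were compared by the same test on log2 CPM per kilobase, without a pseudocount. The biological coefficient of variation was 4.35%. On this scale a floor of 3 counts corresponded to 0.100 to 0.270 CPM per library, and reads carried no molecular identifiers, so floors and intervals of counts cover counting error only.

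The 10 genes and the lists were chosen with earlier results of these data known. The genes named are the 10, CDK12, the genes of each list past both thresholds, the 2 highest and 2 lowest log2 fold changes among those of each list with an adjusted p under 0.05, and the neighbors of SPRY1 and DUSP6. Markers, overlapping genes and genes named in the 2.5 Mb windows were added for their role or after their values were seen. The same holds for NF1, DUSP1, DUSP2, DUSP3, DUSP7, DUSP9, DUSP16, SPRY3, FGFR3, IGF2 and CIC. The same comparison was repeated with limma 3.58.1 (voom, as in the study's methods), with DESeq2 1.42.0, with 2 other normalizations, with other filters on low counts, by the adjusted p alone, and leaving out every library once. The fits were tested on simulated data. Proteins translated from the reference transcripts were aligned globally with Biopython 1.88 (BLOSUM62), and identity is over aligned positions. Promoter windows, 250 bases before to 50 after each start, were from RefSeq. Python 3.11.15, numpy 2.4.6, pandas 2.3.3 and scipy 1.17.1 were used for the remaining steps.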

Additional observations from a re-analysis of the deposited data

How the results depend on the processing

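Over the 10 feedback genes, 118 alternative fold changes were computed, and 114 of them kept direction and side of the adjusted p of 0.05. The other 4 kept direction only and came from leaving out a library: DUSP4 ranged from −0.29 to −0.18 and SPRED1 from 0.11 to 0.21 over such omissions. SPRY1 ranged from −10.49 to −10.02 and DUSP6 from −5.35 to −5.03 over their 11 alternatives. A filter of at least 10 counts in every library removed both, since their KO counts are lower, which left 0 down-regulated feedback genes, 568 up-regulated and 684 down-regulated genes in all and 7 up-regulated pathway list genes. With the adjusted p alone, 6 feedback genes were higher and 4 lower. Of 242 alternative counts, 232 stayed within 1.5 times the value given. Without WT replicate 1, 4 ligands were up-regulated instead of 2. The number was 3 without WT replicate 2, WT replicate 3, KO replicate 1 or KO replicate 2, and with no filter beyond 1 count. It was 1 with at least 10 counts in every library. Upper-quartile scaling moved the median log2 fold change of all genes by 0.028. No paired analysis was possible because the labels number the libraries 1 to 6 and no WT library shares a number with a KO library. With 17 and 18 summed KO counts, depth limits how far the remaining DUSP6 and SPRY1 levels can be told from each other or between libraries. A single clone was sequenced, so the clone and the loss of CDK12 cannot be told apart.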
